A study of Mus musculus with 12 samples.

Results

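Genes that mark or maintain the stem cells of the hair follicle were followed across 12 scars of mouse back skin. The set was made of the rows of the count files named Lgr4, Lgr5, Lgr6, Krt15, Lhx2, Sox9, Tbx1, Foxc1, Nfatc1 and Cd34, which are 10 of the 35976 genes listed, and each of the 10 was found and passed the filter on low counts. The study itself named Lgr4, Lhx2 and Sox9 from these same libraries, so the counts below are not independent evidence of a direction.

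The scars came from male mice aged 8 to 12 weeks, with 3 mice in each of 4 groups. Tem1WT/WT mice carried intact alleles of Cd248, which encodes the transmembrane glycoprotein TEM1 (endosialin). Tem1lacZ/lacZ mice had the single exon of Cd248 replaced by lacZ in every cell of the body, and the line had been backcrossed to C57BL/6J for 10 generations. In both genotypes the back was wounded and a device was fixed over the wound after 6 days. Mice given traction had it lengthened by 1 mm per day until 8 mm was reached, while sham mice wore it at a fixed length. The design asks whether loss of TEM1 alters what stretching does to a scar. Each library was made from poly(A) RNA of part of a whole scar, so that fewer cells of a type and less RNA per cell cannot be told apart. Skin without a wound was not analysed here, and the sham scars are the reference throughout.

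A hair follicle cycles between growth and rest, and each growth phase starts from stem cells kept in the bulge and in the hair germ beneath it. Wnt signalling wakes these cells. R-spondins, the ligands of the receptors LGR4, LGR5 and LGR6, raise that signal by removing the ubiquitin ligases ZNRF3 and RNF43, which otherwise clear Wnt receptors from the cell surface. A group of transcription factors, among them SOX9, LHX2, TBX1, FOXC1 and NFATC1, keeps bulge cells in their state and holds many of them at rest. KRT15, a keratin, and CD34, a surface sialomucin, are the usual markers by which bulge cells of the mouse are found.

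Library totals ranged from 41536788 to 64644293 counts, and a member had between 153 counts (Lgr6) and 67745 counts (Krt15) in a library. Levels are given in CPM, which are counts scaled for the depth of each library, after TMM normalization. Cd248 was at 92.4 to 337 CPM in the 6 Tem1WT/WT libraries and at 0 to 13 counts in the 6 Tem1lacZ/lacZ libraries. Epithelium was well represented in every scar: Krt5, a keratin of basal keratinocytes, was at 2564 to 5168 CPM, and the median level of Krt15 was 227 CPM per kilobase of exon. Replicate 1 of the Tem1WT/WT traction group stood apart, with 6792 CPM summed over 6 neutrophil genes against 609 and 287 CPM in replicates 2 and 3 and 62.0 to 530 CPM in the other groups. Of those 6 genes 4 rose with traction in Tem1WT/WT mice. Replicate 1 of the Tem1WT/WT sham group had 9198 CPM summed over 6 skeletal muscle genes, against at most 2325 CPM in any other library.

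Traction was first compared with sham in Tem1WT/WT mice. Krt15, Lhx2 and Foxc1 fell, and 0 of the 10 members rose (adjusted p under 0.05 over 18853 genes in edgeR's quasi-likelihood test). Over all genes tested, 3.54% fell, 5.61% rose and 9.15% changed in either direction. At an unadjusted p under 0.05 there were 7 members lower and 1 higher (Nfatc1), against 14.7% and 16.7% of all genes. The fold change was negative for 8 members, with a median of −0.83 on the log2 scale against −0.0094 over all genes tested, and positive for Lgr5 and Nfatc1. The libraries of the 2 groups did not overlap for 6 members that were lower with traction (Lgr4, Krt15, Lhx2, Sox9, Tbx1 and Foxc1) and for 1 that was higher (Nfatc1), where 18.0% and 17.7% of all genes did so.

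Krt15 had the largest fall among the members. It was at 1471, 529 and 387 CPM in the sham scars and at 44.1, 203 and 137 CPM in the scars with traction. Every scar with traction was therefore below every sham scar, although replicate 1 was the highest library of the sham group and the lowest of the traction group. The log2 fold change was −2.64 (standard error, SE, 0.59, adjusted p = 0.0329 in edgeR). Without replicate 1 of the sham group it was −1.85 (adjusted p = 0.125 in edgeR), and without replicate 1 of the traction group −2.24 (adjusted p = 0.0519 in edgeR).

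Lhx2 encodes a LIM homeodomain factor of the bulge and hair germ. It was at 23.7, 42.5 and 19.9 CPM in the sham scars and at 8.68, 12.9 and 9.04 CPM with traction. The groups were separate, and the spread between sham scars was wider than that between scars with traction. The log2 fold change was −1.49 (SE 0.33, adjusted p = 0.0328 in edgeR).

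Foxc1 encodes a forkhead factor that is switched on in bulge cells as they enter growth and returns them to rest. It was at 38.9, 41.2 and 25.9 CPM in the sham scars and at 13.5, 17.8 and 12.6 CPM with traction. This was the most even of the 3 falls within its groups, with a log2 fold change of −1.27 (SE 0.22, adjusted p = 0.0252 in edgeR).

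The 3 calls depended on which libraries were in the fit. Without replicate 1 or without replicate 2 of the sham group, 0 members and 0 of all genes tested passed the threshold, with adjusted p between 0.0869 and 0.125 in edgeR for the 3 genes. Without replicate 3 of the Tem1lacZ/lacZ sham group, or replicate 1 or 3 of the Tem1WT/WT traction group, Foxc1 was the only member to pass. The adjusted p of Lhx2 and Krt15 then lay between 0.0519 and 0.0718. In these fits, in that order, 169 of 19366, 360 of 19388 and 704 of 19430 genes tested passed. Without replicate 2 of the Tem1WT/WT traction group, Lgr4 and Sox9 passed as well (adjusted p = 0.0389 and 0.0355 in edgeR). The number of all genes that passed rose too, to 2861 of 19400. With limma-voom Lhx2 did not pass (adjusted p = 0.0776), where 735 of 18853 genes did. With DESeq2, the tool the study used, 7 members passed (the 6 that did not overlap and were lower, and Nfatc1), where 21.6% of all genes with an adjusted p did so.

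RefSeq promoter windows, which run from 250 bases before to 50 bases after a transcript's start, were read for 6 of the 10 members. Those of the 2 transcription factor genes that fell and the one of Cd34, whose level did not follow them, are printed because they differ in base composition. They read along the plus strand of GRCm38.p6, at chr2:38339031-38339330 for the first Lhx2 window, chr13:31806396-31806695 for Foxc1 and chr1:194938571-194938870 for Cd34, and capitals mark the GC box (GGGCGG, searched on both strands).
Lhx2: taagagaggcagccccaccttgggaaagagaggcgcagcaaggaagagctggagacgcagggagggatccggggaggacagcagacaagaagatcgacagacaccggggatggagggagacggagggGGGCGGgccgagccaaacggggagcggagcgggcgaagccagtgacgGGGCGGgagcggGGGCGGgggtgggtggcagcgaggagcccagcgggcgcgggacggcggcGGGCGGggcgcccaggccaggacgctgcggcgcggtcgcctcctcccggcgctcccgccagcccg
Foxc1: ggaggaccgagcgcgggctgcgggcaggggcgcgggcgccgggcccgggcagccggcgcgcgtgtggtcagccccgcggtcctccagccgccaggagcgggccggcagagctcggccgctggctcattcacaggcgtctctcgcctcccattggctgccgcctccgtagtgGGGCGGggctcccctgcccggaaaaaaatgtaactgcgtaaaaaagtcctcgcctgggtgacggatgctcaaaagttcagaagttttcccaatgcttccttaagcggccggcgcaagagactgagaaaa
Cd34: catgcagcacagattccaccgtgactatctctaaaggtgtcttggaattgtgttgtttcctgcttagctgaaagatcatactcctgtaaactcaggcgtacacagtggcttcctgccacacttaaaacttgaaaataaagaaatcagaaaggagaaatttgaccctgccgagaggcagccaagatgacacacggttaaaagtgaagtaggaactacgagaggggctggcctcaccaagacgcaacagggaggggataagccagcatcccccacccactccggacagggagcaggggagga
The first Lhx2 window held 4 GC boxes and 34 CpG dinucleotides, and the Foxc1 window held 1 and 32. Among the windows not printed, the Lgr6 window and the first Tbx1 window held 2 GC boxes each. The Lgr4 window and the second windows of Lhx2 and Tbx1 held 0. The Cd34 window held 0 GC boxes and 7 CpG dinucleotides, which is also the median of all windows. Of the 8 windows of the 6 members, 5 were at least 60% G or C, against 29.5% of all 32851 windows, and the GC box was found in 35.7% of all windows. The NFAT core GGAAAA, searched on both strands, occurred 2 times in the Foxc1 window and 1 time each in a window of Lgr4 and of Lhx2, and in 23.4% of all windows. The TATA box TATAAA occurred in 0 of the 8 windows and in 13.6% of all. Such matches are letters in a window and are not binding sites. No window was held for Lgr5, Sox9 and Krt15. Nfatc1, which went against the other factors, was left out of this step. The counts over the 8 windows and the printed windows therefore do not cover Nfatc1.

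Among the other transcription factors, Sox9, which is needed to form and keep the bulge, was at 45.6, 54.7 and 39.7 CPM in the sham scars and at 22.9, 37.4 and 25.9 CPM with traction. The groups were separate by a small gap, and the log2 fold change of −0.70 (SE 0.24, adjusted p = 0.0805 in edgeR) did not pass the threshold. Tbx1, a T-box factor that bulge cells need to renew themselves, was at 13.9, 28.7 and 16.7 CPM and at 7.95, 10.9 and 11.2 CPM with traction. Its log2 fold change was −0.98 (SE 0.32, adjusted p = 0.0703 in edgeR), and it was −0.59 (adjusted p = 0.249) without replicate 2 of the sham group, which was well above the other replicates.

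Nfatc1, which holds bulge cells at rest, went against the other factors. It was at 45.1, 30.6 and 34.6 CPM in the sham scars and at 55.5, 55.5 and 67.0 CPM with traction. Each scar with traction was above each sham scar, with a log2 fold change of 0.69 (SE 0.22, adjusted p = 0.0695 in edgeR). Nfatc1 is also used by endothelial and blood cells. Of 10 endothelial genes 6 rose and 0 fell, with a summed level of 380 to 556 CPM in the sham scars and 903 to 1089 CPM with traction, and of 6 leukocyte genes 0 passed the threshold, with 603 to 894 CPM and 909 to 1556 CPM. Their part in the level of Nfatc1 was not tested.

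The 3 R-spondin receptors did not share a pattern. Lgr4, the most widely expressed of them in epithelia, was at 58.3, 67.6 and 47.2 CPM in the sham scars and at 26.6, 44.9 and 37.6 CPM with traction. The highest scar with traction was just below the lowest sham scar, and the log2 fold change of −0.67 (SE 0.21, adjusted p = 0.0675 in edgeR) did not pass the threshold. Lgr5, a marker of the lower bulge and hair germ, was at 34.0, 47.0 and 51.4 CPM and at 12.4, 58.5 and 96.7 CPM with traction. The scars with traction held both the lowest and the highest level, and the log2 fold change was 0.34 (SE 0.50, adjusted p = 0.681 in edgeR). Without replicate 3 of the traction group it was −0.31 and without replicate 1 it was 0.79. Replicate 1, where Lgr5 was lowest, was the library with 6792 CPM of neutrophil genes. The part of that difference between replicates in the level of Lgr5 was not tested. Lgr6, a receptor of cells above the bulge, had the fewest counts of the members. It was at 14.6, 11.7 and 6.29 CPM in the sham scars and at 7.64, 5.56 and 3.49 CPM with traction. The groups overlapped by replicate 3 of the sham group, and the log2 fold change was −0.96 (SE 0.41, adjusted p = 0.138 in edgeR).

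Cd34 was at 301, 224 and 394 CPM in the sham scars and at 113, 237 and 370 CPM with traction. Replicate 1 with traction was below all sham scars and the other replicates lay within their range, and the log2 fold change was −0.35 (SE 0.39, adjusted p = 0.575 in edgeR). Without replicate 1 of the traction group it was −0.03. In skin CD34 is also carried by endothelial cells, mast cells and dermal fibroblasts. Of 5 mast cell genes 0 passed the threshold, with a summed level of 173 to 261 CPM in the sham scars and 124 to 260 CPM with traction. Of 8 fibroblast genes 1 rose (Pdgfra, log2 fold change 1.45, adjusted p = 0.0329 in edgeR) and 0 fell, with 13290 to 17950 CPM and 20410 to 55110 CPM. The part of these cells in the level of Cd34 was not tested. An antisense gene, Gm16897, overlaps Cd34 and had 1246 counts over all 12 libraries, against 4765 to 24063 counts of Cd34 in each library.

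**Figure D1:**
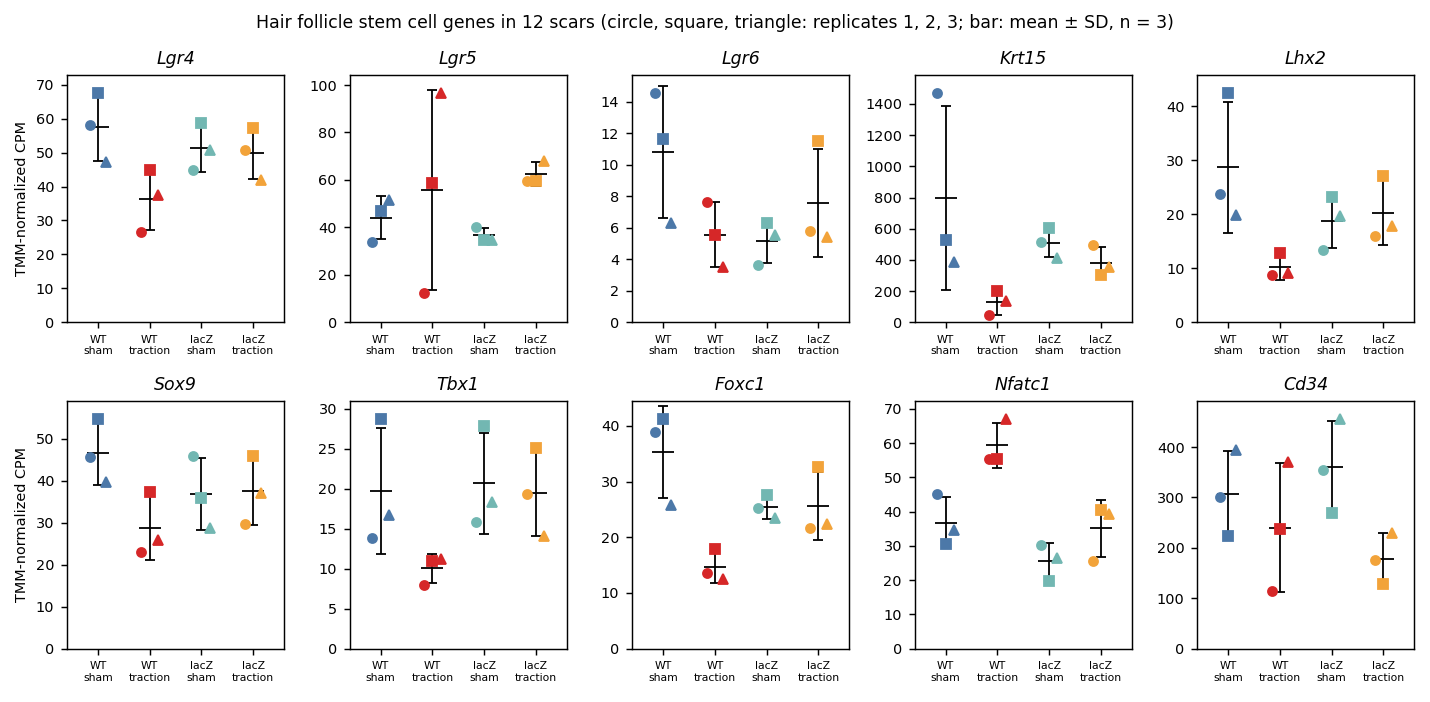
Level of each member in each scar in TMM-normalized CPM (y axis, linear from 0), by group (x axis); symbols are replicates and bars are the mean ± SD of 3 mice. In Tem1WT/WT mice the scars with traction lie below all sham scars for Lgr4, Krt15, Lhx2, Sox9, Tbx1 and Foxc1 and above them for Nfatc1, and in Tem1lacZ/lacZ mice the same groups overlap for these 7 genes.

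In Tem1lacZ/lacZ mice, traction left 0 members past the threshold, as it did 0.0% of all genes (edgeR). The median log2 fold change over the members was 0.02 against −0.015 over all genes tested. At an unadjusted p under 0.05 there was 1 member, Cd34, which was lower as were 2.46% of all genes. With DESeq2 0 members passed against 0.19% of all genes, and with limma-voom 0 members passed, where 377 of 18853 genes did. The levels of the 3 genes that fell in Tem1WT/WT mice overlapped between sham and traction here. Krt15 was at 512, 604 and 415 CPM in the sham scars and at 493, 301 and 354 CPM with traction (log2 fold change −0.41, SE 0.55, adjusted p = 0.847 in edgeR). Lhx2 was at 13.4, 23.2 and 19.6 CPM and at 16.0, 27.2 and 17.8 CPM (log2 fold change 0.12, SE 0.32, adjusted p = 0.935). Foxc1 was at 25.3, 27.6 and 23.4 CPM and at 21.7, 32.6 and 22.4 CPM (log2 fold change 0.01, SE 0.22, adjusted p = 0.994). For Lhx2 and Foxc1, replicate 2 with traction was the highest of the 6 libraries.

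Cd34 and Lgr5 were the members whose Tem1lacZ/lacZ groups did not overlap. Cd34 was at 354, 270 and 455 CPM in the sham scars and at 175, 128 and 230 CPM with traction, with a log2 fold change of −1.02 (SE 0.40, unadjusted p = 0.0262 and adjusted p = 0.598 in edgeR). Lgr5 was at 40.2, 34.8 and 34.7 CPM and at 59.6, 59.6 and 68.2 CPM, with a log2 fold change of 0.77 (SE 0.51, adjusted p = 0.680). Of all genes, 6.16% were lower and 6.77% higher without overlap in this comparison. Nfatc1 had a log2 fold change of 0.46 and Lgr6 of 0.56, and the latter was 0.12 without replicate 2 of the traction group. For Lgr4, Sox9 and Tbx1 it was −0.04, 0.03 and −0.08.

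With traction, Tem1lacZ/lacZ scars were then compared with Tem1WT/WT scars. The calls were 0 of 10 members, where 0.106% of all genes passed the threshold (edgeR). The groups did not overlap for Krt15, Lhx2, Tbx1 and Foxc1, which were higher in Tem1lacZ/lacZ mice, and for Nfatc1, which was lower. Over all genes 12.9% were higher and 13.7% lower without overlap. At an unadjusted p under 0.05 there were 4 members higher and 1 lower, against 11.1% and 15.1% of all genes. The largest difference was in Krt15, at 44.1 to 203 CPM in Tem1WT/WT and 301 to 493 CPM in Tem1lacZ/lacZ mice (log2 fold change 1.58, SE 0.57, adjusted p = 0.127 in edgeR). Foxc1 was at 12.6 to 17.8 CPM and 21.7 to 32.6 CPM (0.81, SE 0.22, adjusted p = 0.0951). Tbx1, at 7.95 to 11.2 CPM and 14.1 to 25.0 CPM, had a log2 fold change of 0.96 (SE 0.32, adjusted p = 0.112). Nfatc1, at 55.5 to 67.0 CPM and 25.5 to 40.4 CPM, had −0.76 (SE 0.22, adjusted p = 0.0976). These 4 genes and Lhx2 passed the threshold with DESeq2, where 13.2% of all genes with an adjusted p did. Without replicate 2 of the Tem1WT/WT traction group, Foxc1 was the only member to pass in edgeR (adjusted p = 0.0438). In that fit 1421 of 19400 genes tested passed.

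Between the sham groups, 0 of 10 members differed past the threshold, where 0.0106% of all genes did (edgeR), and 0 did with DESeq2 against 0.307% of all genes. The median log2 fold change of Tem1lacZ/lacZ against Tem1WT/WT was −0.41, with 8 of 10 members negative, against −0.01 over all genes, and it was −0.19 without replicate 2 of the Tem1WT/WT sham group. An unadjusted p under 0.05 was reached by Lgr6 (log2 fold change −1.07, SE 0.41, adjusted p = 0.409 in edgeR) and Nfatc1 (−0.52, SE 0.22, adjusted p = 0.418), where 6.62% of all genes were lower at that level. Nfatc1 was at 30.6 to 45.1 CPM in Tem1WT/WT and 19.8 to 30.3 CPM in Tem1lacZ/lacZ sham scars, and the groups did not overlap, as for 13.8% of genes that were lower. Lgr6 was at 6.29 to 14.6 CPM and 3.64 to 6.31 CPM, with an overlap of a single pair of libraries. Krt15 without replicate 1 of the Tem1WT/WT sham group had a log2 fold change of 0.16 in place of −0.64.

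The order of the 4 groups could be read for few members. For Krt15, Lhx2, Tbx1 and Foxc1 the Tem1WT/WT traction group was the lowest and did not overlap any other group, while the other 3 groups overlapped one another in part or in full. For Nfatc1 the same group was the highest and did not overlap the others. For Lgr4 and Sox9 the Tem1WT/WT traction group had the lowest mean and overlapped the Tem1lacZ/lacZ groups. The share of all genes with such orders was not counted, so the number of members that had one is not read as a result.

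The difference between the genotypes in the response to traction was tested as an interaction. It passed the threshold for 0 of 10 members and for 0.0% of all genes in edgeR, and for 0 members with DESeq2, against 0.368% of all genes. At an unadjusted p under 0.05 there were 4 members, all with a positive interaction, where 4.46% of all genes had one: Krt15 (log2 interaction 2.22, SE 0.79), Lhx2 (1.61, SE 0.46), Lgr6 (1.52, SE 0.58) and Foxc1 (1.28, SE 0.31), each with an adjusted p of 0.548 in edgeR. The median over the members was 0.81 against −0.0024 over all genes, and it was 0.54 without replicate 2 of the Tem1WT/WT sham group. The interaction of Krt15 was 1.43 without replicate 1 of that group. A fall past the threshold in Tem1WT/WT mice and not in Tem1lacZ/lacZ mice is thus not shown to differ between the genotypes for any member.

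**Figure D2:**
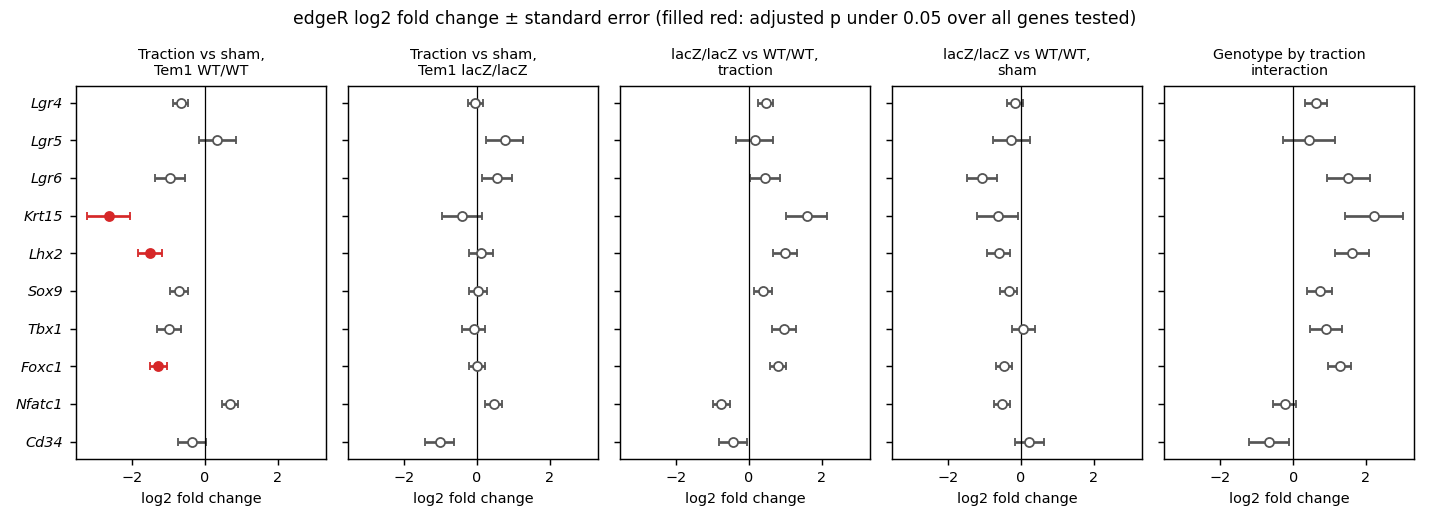
Log2 fold change of each member (x axis) in the 4 comparisons and the interaction, with its standard error from edgeR; filled red points have an adjusted p under 0.05 over all genes tested. Krt15 (−2.64), Lhx2 (−1.49) and Foxc1 (−1.27) are the filled points, all in the comparison of traction with sham in Tem1WT/WT mice.

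Since these genes are read from whole scars, each was also set against the epithelium of the same library, as its log2 CPM minus the mean log2 CPM of 10 genes of basal epithelium. That mean was 8.72 ± 0.11 in the sham and 8.66 ± 0.34 in the traction group of Tem1WT/WT mice (SD, n = 3), and 8.91 ± 0.14 and 8.77 ± 0.49 in those of Tem1lacZ/lacZ mice (SD, n = 3). It was highest in replicate 1 of both traction groups, at 9.04 and 9.33. Against this reference the difference between traction and sham in Tem1WT/WT mice was −2.58 for Krt15, −1.37 for Lhx2, −1.19 for Foxc1 and 0.77 for Nfatc1, and for these 4 members the groups did not overlap. It was −0.62 for Lgr4, −0.65 for Sox9 and −0.86 for Tbx1, whose groups overlapped on this scale, and −0.01 for Lgr5. With Krt5 and Krt14 alone as the reference, which shifts every member by the same amount within a comparison, the values ran from 0.15 for Nfatc1 to lower ones for the others, −1.24 for Lgr4 and −1.81 for Foxc1 among them. The Nfatc1 groups then overlapped, and those of Tbx1 and Cd34 did not. Krt14 itself, which did not pass the threshold, was at 3051 to 6494 CPM in the sham scars and 4771 to 12330 CPM with traction. Between the traction groups, Krt15 was higher in Tem1lacZ/lacZ mice by 1.70 relative to the 10 genes without overlap, whereas the groups overlapped for Lhx2, Tbx1, Foxc1 and Nfatc1, which had not overlapped in CPM. The overlaps depended on the reference. With Krt5 and Krt14 alone, the Krt15 groups overlapped (1.81). Without the 2 most abundant of the 10 genes, Krt15 (1.67) and Tbx1 (0.80) were higher and Nfatc1 (−0.92) lower without overlap. Between the sham groups, Lgr6 (−1.21), Lhx2 (−0.76), Nfatc1 (−0.72), Foxc1 (−0.64) and Sox9 (−0.55) were lower in Tem1lacZ/lacZ mice without overlap, of which Nfatc1 alone had not overlapped in CPM. Sox9 overlapped with Krt5 and Krt14 alone, where Lgr4 and Lgr5 did not, and Lhx2 overlapped without the 2 most abundant genes. These are values with no test. The share of all genes without overlap on this scale was not counted, and the same reference was subtracted from every member of a library.

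**Figure D3:**
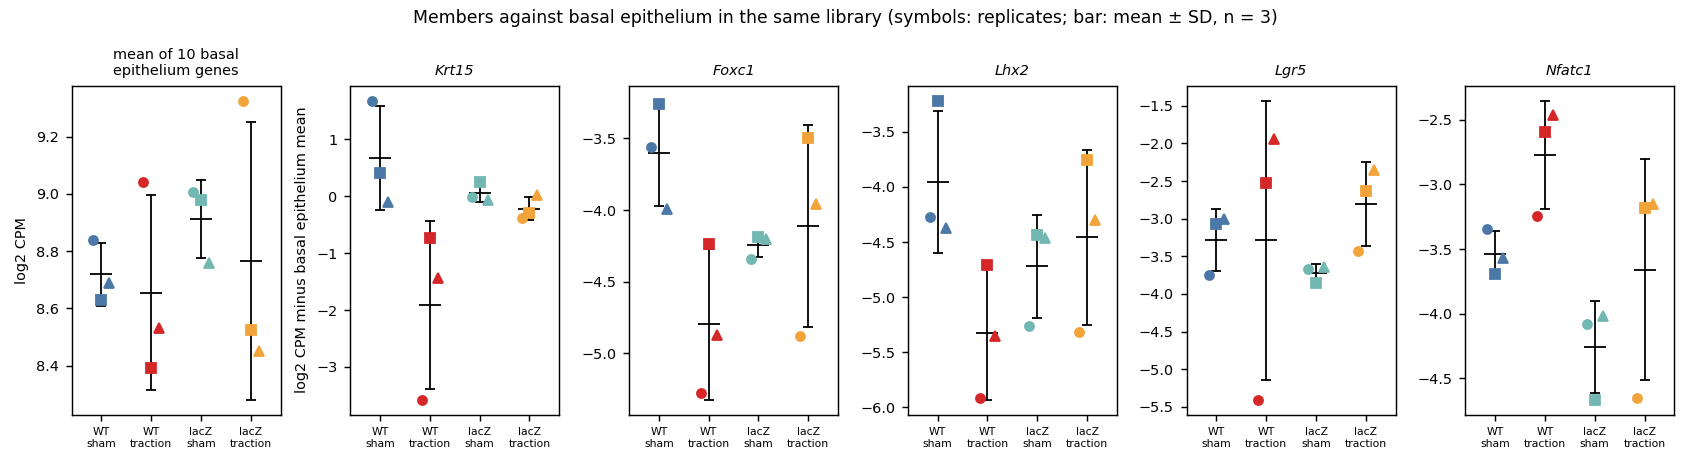
Left, mean log2 CPM of 10 basal epithelium genes in each library; other panels, log2 CPM of a member minus that mean (y axes), by group (x axes), with bars for the mean ± SD of 3 mice. In Tem1WT/WT mice Krt15, Foxc1 and Lhx2 lie lower with traction and Nfatc1 higher without overlap, while Lgr5 differs by −0.01 in mean.

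Other follicle genes were described from lists of known markers. Of 14 further genes of the bulge and its surroundings, 2 fell with traction in Tem1WT/WT mice and 1 rose, with a median log2 fold change of −0.56. Nfib, which with its relatives guards the identity of bulge cells, fell from 181 ± 45.4 to 85.7 ± 26.7 CPM (SD, n = 3, log2 fold change −1.08, adjusted p = 0.0345 in edgeR). Vdr, the vitamin D receptor that follicles need to cycle, fell with a log2 fold change of −0.92 (adjusted p = 0.0381), and is named here after its value was seen. Dkk3, a secreted protein related to Wnt inhibitors and also made by fibroblasts, rose from 83.4 ± 11.6 to 178 ± 35.7 CPM (SD, n = 3, log2 fold change 1.10, adjusted p = 0.0239). Sfrp1, an inhibitor of Wnt signalling, had a log2 fold change of 0.15 (adjusted p = 0.775).

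Of 13 other genes of the R-spondin and Wnt pathway, 1 fell and 0 rose in that comparison, with a median of −0.46. The gene was Rnf43, whose product is the ligase removed through the LGR receptors. It was at 11.8 to 17.6 CPM in the sham scars and 6.95 to 7.09 CPM with traction (log2 fold change −1.14, SE 0.24, adjusted p = 0.0314 in edgeR). Notum, which inactivates Wnt proteins, had −1.42 (adjusted p = 0.0649), and Ctnnb1, for beta-catenin, and Lrp6, for a Wnt co-receptor, had 0.02 and −0.06. In Tem1lacZ/lacZ mice 0 of the 13 passed in edgeR, 2 were higher at an unadjusted p under 0.05, as were 5.66% of all genes, and the median was 0.43. There Lrp5, for another co-receptor, had a log2 fold change of 0.78 and the R-spondin gene Rspo3 0.96 (adjusted p = 0.598 for both). Between the sham groups, the median of the 13 in Tem1lacZ/lacZ against Tem1WT/WT mice was −0.68, with 12 negative, 0 past the threshold in edgeR and 6 lower at an unadjusted p under 0.05, as were 6.62% of all genes.

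Genes of the growing hair were read in the same way. Of 9 hair matrix factors, 2 fell in Tem1WT/WT mice with traction (Gata3, log2 fold change −1.30, adjusted p = 0.0326, and Hoxc13, −1.71, adjusted p = 0.0406 in edgeR) and all 9 had negative values, with a median of −1.30. Their summed level was 278 to 557 CPM in the sham scars and 135 to 178 CPM with traction. Of 8 tested hair shaft and root sheath genes, 1 fell (Tchh, for trichohyalin of the inner root sheath, −1.98, adjusted p = 0.0329), and the median was −1.98. The study named Hoxc13 and other genes of these lists, and Gli1 of the bulge list, from these libraries. Of 6 dermal papilla genes 1 rose (Sox18, 1.57, adjusted p = 0.0252), a gene that endothelial cells also express, and 0 fell, and of 5 sebaceous gland genes 2 fell (Awat2, −1.76, and Mc5r, −1.75). In Tem1lacZ/lacZ mice 0 genes of any of these lists passed the threshold in edgeR, as 0.0% of all genes did. At an unadjusted p under 0.05 there were 0 hair matrix and 0 hair shaft genes, and 2 other bulge genes were higher and 1 lower, and the medians were 0.35 for hair matrix, −0.32 for hair shaft and 0.10 for other bulge genes.

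Genes of the epidermis outside the follicle varied in direction. Of 10 basal epithelium genes 1 fell in Tem1WT/WT mice with traction (Epcam, an adhesion molecule of epithelia, 193 ± 44.3 to 74.0 ± 24.8 CPM, SD, n = 3, log2 fold change −1.38, adjusted p = 0.0311 in edgeR) and 0 rose, with a median of −0.04. Of 7 genes of the differentiated epidermis 0 passed and the median was −0.73. Of 4 stress keratins of the wound edge 0 passed and the median was 1.82, with a summed level of 3157 to 8918 CPM in the sham scars and 6661 to 20550 CPM with traction, the highest in replicate 1. Of 4 genes of dividing cells 0 passed, with a median of −0.16. Replicate 1 with traction thus held the lowest Krt15, Lgr4, Lgr5, Lhx2, Sox9, Tbx1 and Cd34 of its group together with the highest neutrophil and stress keratin sums. Lgr6 was the highest of its group there (7.64 CPM), Foxc1 lay between the other replicates (13.5 CPM) and Nfatc1 was level with replicate 2 (55.5 CPM). The part of the neutrophil and stress keratin genes in those levels was not tested.

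SOX9 is also a leading factor of cartilage, and muscle and fat can be caught at the edge of a scar. Among 7 cartilage genes Col2a1 had at most 8 counts, Matn1 at most 2 and Col9a1 at most 16 in a library, and 0 of the 4 tested passed the threshold. Of 6 skeletal muscle genes 0 passed and the median was −3.10, with a summed level of 638 to 9198 CPM in the sham scars, highest in replicate 1 where Krt15 was also highest, and 178 to 1297 CPM with traction. Of 5 adipocyte genes 0 passed and the median was −1.48. The part of these tissues in the members' levels was not tested.

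**Figure D4:**
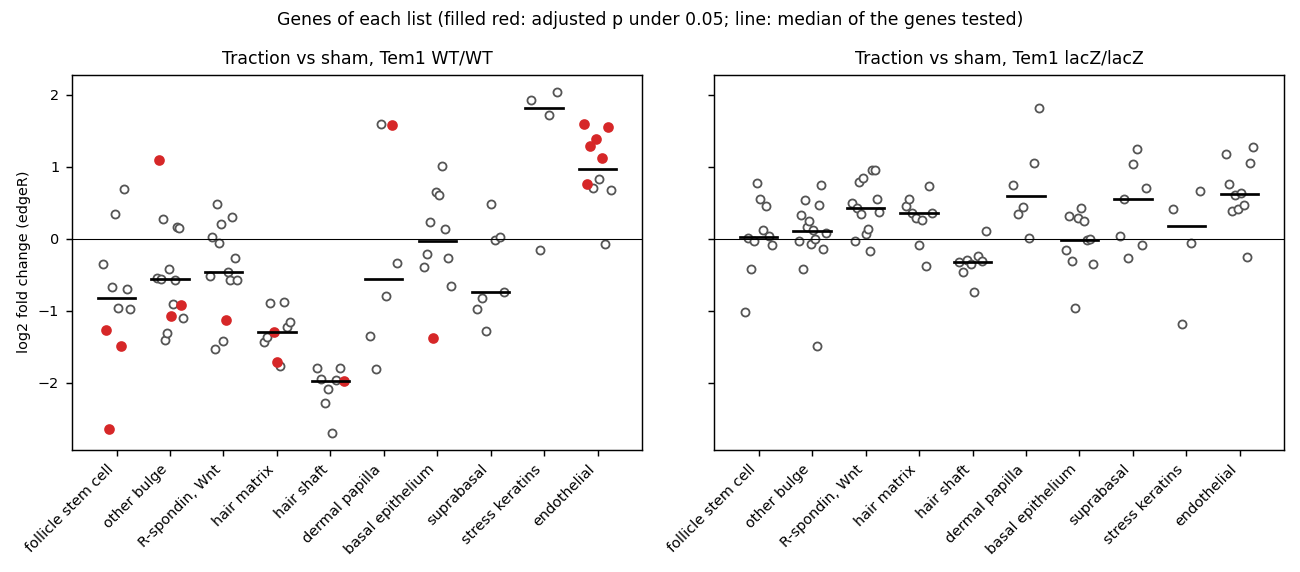
Log2 fold change of each gene (points, y axis) of 10 lists (x axis) for traction against sham in each genotype; filled red points have an adjusted p under 0.05 and lines are list medians. In Tem1WT/WT mice the medians are −0.83 for the follicle stem cell genes, −1.30 for hair matrix and 0.97 for endothelial genes, and in Tem1lacZ/lacZ mice 0 genes are filled.

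Per kilobase of exon, the members spanned a wide range of levels. Medians over the 12 scars were 227 CPM per kilobase for Krt15 and 34.8 for Cd34, followed by Sox9 at 9.02, Lgr4 at 8.31, Nfatc1 at 4.96, Lgr5 at 4.79, Tbx1 at 4.63, Lhx2 at 4.25 and Foxc1 at 4.17, with Lgr6 lowest at 0.88. The ranges over libraries overlapped for neighbours in this order from Sox9 to Foxc1, and those of Krt15 (25.0 to 832) and Cd34 (15.6 to 62.5) overlapped as well. Cd34 did not overlap Sox9, nor Foxc1 Lgr6.

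As a description over the 12 libraries, which share 4 groups and their differences in tissue, Pearson's r of log2 CPM was 0.93 between Lhx2 and Foxc1, 0.90 between Lgr4 and Lhx2 and 0.87 between Lgr4 and both Tbx1 and Foxc1. Lgr5 stood aside with r from −0.30 (Lgr6) to 0.34 (Lgr4), and Nfatc1 ran against Tbx1 with −0.78. Of 13646 genes compared, those most like Foxc1 were Nfib, Shisa2 and Casz1 (r = 0.96 for each). Those most like Lhx2 were Ralgps2, Bcl11a and Slc16a7 (0.97, 0.96 and 0.96), and those most like Krt15 were Skint10, Gk5 and Gpr155 (0.98, 0.97 and 0.97). Sox9 was most like Tnik, Gata3 and Casz1 (0.94, 0.93 and 0.92), and Tbx1 like Gyltl1b, Kctd6 and Ptprv (0.96, 0.95 and 0.93). Among the receptors, Lgr4 was most like Gpr37, Mc5r and Krt74 (0.96, 0.96 and 0.95), Lgr5 like Sbspon, Krt10 and Myl9 (0.94 for each) and Lgr6 like Gldn, Eya1 and Ninl (0.90, 0.87 and 0.86). Nfatc1 was most like Nagpa, Fbln1 and Fhl3 (0.98 for each), and Cd34 like Lrrn4cl, Sema3c and Bdh2 (0.97, 0.94 and 0.93). Foxc1 (Nfib), Sox9 (Gata3) and Lgr4 (Mc5r, of the sebaceous gland) had a follicle gene of the lists among their 3 nearest. Nfatc1, Cd34, Krt15, Lhx2, Tbx1, Lgr5 and Lgr6 did not.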

How the data were processed

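Poly(A) libraries of the 12 scars were made with a stranded kit. Per the labels, the authors trimmed reads with fastp 0.20.0, aligned them to GRCm38 with HISAT2 2.1.0 and counted them with featureCounts 2.0.0, and they deposited raw counts per gene. The annotation and the handling of strand and of reads with several alignments are not given in the sources used here, so reads of overlapping antisense genes may not be separable. Groups came from the sample labels, which name no batch. The files list genes by symbol, and positions and exon lengths came from GENCODE vM21.

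Genes were filtered with filterByExpr, leaving 18853, scaled by TMM and tested in R 4.3.3 with edgeR 4.0.16 (robust quasi-likelihood, a mean for each of the 4 groups, 8 residual degrees of freedom, two-sided, Benjamini-Hochberg over all genes tested). The scripts were tested on simulated data. limma 3.58.1 (voom) and DESeq2 1.42.0 served as alternatives, and log2 CPM used a prior count of 2. Figures were drawn with Python 3.11.15 and matplotlib 3.10.9. Variation between mice, as the biological coefficient of variation, was 34.2%. Within each group, no library was a copy of another, and pairs from different groups were not checked. Every member was described, and from each other list up to 4 genes were named per comparison, the 2 most abundant and the 2 with the smallest p, with likeness to a member ranked by Pearson's r. The members and lists were chosen with earlier results of these data known.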

Additional observations from a re-analysis of the deposited data

Results flagged for a closer look

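The mean level of Lgr6 was lower with traction in Tem1WT/WT mice and higher in Tem1lacZ/lacZ mice, and neither difference passed the threshold. In Tem1WT/WT mice each scar with traction was below the mean of the sham scars on the log2 scale, and in Tem1lacZ/lacZ mice each was above it, with a log2 interaction of 1.52 (SE 0.58, adjusted p = 0.548 in edgeR). The groups overlapped within both genotypes, and the interaction was between 1.07 and 1.87 when each library was left out in turn. The log2 fold change in Tem1lacZ/lacZ mice was 0.12 without replicate 2 of the traction group. Groups of 3 libraries were too small for a test of single outlying libraries.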

How the results depend on the processing

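With traction in Tem1WT/WT mice the count of members past the threshold, 3 in edgeR, was 7 with DESeq2 and 2 with limma-voom (Lhx2 lost). It was 5 with the replicate number as a block (Lgr4 and Tbx1 added, adjusted p = 0.0462 and 0.0390 in edgeR). It was 0 with only the 6 libraries compared and 0 to 5 when each library was left out. The count over all genes moved as well. It was 1725 of 18853 in edgeR, 4047 of 18728 with DESeq2, 735 of 18853 with limma-voom and 1467 of 18853 with the block. With only the 6 libraries 0 of 17762 genes passed, and with a library left out 0 to 2861 did. With traction, Tem1lacZ/lacZ against Tem1WT/WT gave 5 members with DESeq2 and 0 to 1 with a library left out, against 0. Over all genes it gave 2334 of 17632 with DESeq2 and 3 to 1421 with a library left out, against 20 of 18853. The median interaction ranged from 0.54 to 1.07 with a library left out. In the other comparisons no member passed under any alternative run in edgeR, DESeq2 or limma-voom. Some other genes did. For traction in Tem1lacZ/lacZ mice 377 of 18853 genes passed with limma-voom, and 73 of 19403 in edgeR without replicate 1 of the traction group. Between the sham groups 43 of 14007 genes passed with DESeq2, and for the interaction 69 of 18728 did. The members' median for traction in Tem1lacZ/lacZ mice, 0.02, was −0.02 with upper quartile scaling, 0.08 with limma-voom and −0.15 to 0.19 with a library left out, and the medians of the other comparisons kept their sign. With upper quartile scaling the median of all genes was −0.12 (traction in Tem1WT/WT mice) and 0.14 (genotype with traction), against −0.0094 and 0.0138.

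Values near 0 changed sign in traction against sham of Tem1lacZ/lacZ mice: Sox9 was −0.0053 and Foxc1 −0.0302 with upper quartile scaling, and Foxc1 −0.0114 with the replicate block. Tbx1 between the sham groups was −0.0578 with limma-voom. With a library left out, log2 fold changes that crossed 0 ranged from −0.15 to 0.095 (Lgr4), −0.13 to 0.26 (Sox9), −0.15 to 0.33 (Lhx2), −0.31 to 0.22 (Tbx1) and −0.20 to 0.16 (Foxc1) for traction in Tem1lacZ/lacZ mice, and from −0.31 to 0.79 for Lgr5 in Tem1WT/WT mice. They ranged from −0.28 to 0.83 (Lgr5) and −0.74 to 0.032 (Cd34) between genotypes with traction, from −0.95 to 0.16 (Krt15) and −0.22 to 0.46 (Tbx1) between sham groups, and from −0.40 to 0.0055 for the interaction of Nfatc1. Cd248 with only 6 libraries had an adjusted p of 0.154 with traction in edgeR. The causes were not tested.

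Same-numbered libraries came from different mice, and the deviations of 8 of 18 same-numbered pairs correlated above 0.1 (median 0.089, range −0.32 to 0.25), against 2 of 36 pairs with different numbers (median −0.02). Not every pair was above 0.1, and the libraries were not treated as paired in the main fit. That rule is no test of an effect shared by same-numbered libraries, and the counts with the replicate number as a block are given above.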
